A study of Mus musculus with 9 samples.

Results

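The heat shock proteins and chaperones described here are 10 mouse genes, Hspa1a, Hspa1b, Hspa8, Hspb1, Dnaja1, Dnajb1, Hsph1, Hsp90aa1, Hspd1 and Hspe1, measured on bead arrays in activated hepatic stellate cells (aHSCs), the scar-forming cells of the injured liver. Members were found by gene symbol or synonym, which gave 19 of the 45281 gene probes and 9 of the 10 genes. Hsph1 carried an older symbol, Hsp105, and was matched to 1 further probe through its RefSeq accession. It is described with the others but is not counted among the 19. Of the 19 probes, 16 passed the filter on detection, as did 20573 of all probes. The 3 that did not, 1 each for Hspb1, Dnaja1 and Hsp90aa1, were detected on no array. The genes were listed with earlier results of the same 9 arrays known. They had been selected on differences between these groups, so their own values are given as a description. Counts of member probes past a threshold are printed beside those of all probes for scale only, and nothing is read from them.

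By their labels, all 9 samples came from male C57/Bl6 mice of genotype WT1GFP/+, in which a green fluorescent protein (GFP) reporter sits at the WT1 locus on 1 allele. For its in vitro work the study states in general that mice of either sex were used. WT1 is a transcription factor that the study found in the hepatic mesothelium and, after injury, in part of the aHSCs. It found none within lobules of uninjured liver. WT1-high (GFP high; replicates 1, 8 and 29) and WT1-intermediate cells (GFP low; replicates 1, 8 and 30) were sorted by flow cytometry straight from livers of adult animals chronically injured with carbon tetrachloride by intraperitoneal injection, after digestion and density centrifugation. The study states 3 animals for these 6 arrays. WT1-negative cells (GFP negative; replicates 3, 11 and 14) were sorted after quiescent stellate cells from uninjured liver had become activated on plastic over 7 days. In comparisons with WT1-negative cells, therefore, WT1 status, injury, culture and fresh isolation change together and cannot be told apart. The study describes its replicates as individual animals in vivo and separate cell isolations in vitro. Levels are background corrected, quantile normalised log2 intensities. A difference of 1 is a doubling, and values near 4.3 are background. Array signal does not separate fewer cells of a type from less RNA per cell.

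Heat shock proteins bind unfolded or partly folded proteins and help them fold, travel or be degraded. HSP70 proteins work in cycles of ATP binding that J-domain co-chaperones start and nucleotide exchange factors end, whereas HSP90 acts late, on nearly folded clients. Small heat shock proteins hold unfolded clients without ATP, and HSP60 with HSP10 forms a folding chamber in mitochondria. Many of these genes carry heat shock elements, inverted repeats of nGAAn bound by heat shock factor 1, and are induced within minutes by heat, oxidative damage or handling of cells.

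The sequences behind the readings are given first because genes with several probes did not always read alike. The lines hold the first 30 of the 50 bases of the probes on which the results turn most, in lower case, each with its probe number.

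Hspa1a ILMN_2829594: acatcaggagactgttgagttctttgtgtt

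Hspa1b ILMN_2498263: acgtcttggcactgtgtactacataacttt

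Hspa8 ILMN_1249586: gcatcagcagaaagaactggagaaagtctg

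Hspa8 ILMN_1246458: cattaccaagctgtaccagagtgcaggtgg

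Hspa8 ILMN_2918479: tgcctggcatttgtgtggtctcgtcgtcag

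Hspd1 ILMN_2713841: ggtttcctttgacgatatataatggtttac

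Hspd1 ILMN_2639036: gtaaaatttggtgcggacgctcgagcctta

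No member probe shared a run of 20 or more bases with any other probe on the array. Hspa1a and Hspa1b encode nearly identical proteins. Their 5 probes shared runs of 3 to 7 bases with each other, a comparison of probes with probes and not with transcripts. Whether a probe also bound the transcript of the other copy was not tested.

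In both in vivo populations most member probes lay above the cultured cells. Relative to WT1-negative cells, 13 of the 16 probes lay past an adjusted p of 0.05 (limma, Benjamini-Hochberg over all probes) as higher and 2 as lower in WT1-high cells, and the WT1-intermediate counts were the same. Over all tested probes, 59.6% were called in the first comparison, 26.5% higher and 33.1% lower. In the second 58% were called, 24.4% higher and 33.6% lower. The member counts come from the contrasts on which the genes were selected and are no test of them. The median difference over the 16 probes was 1.59 (WT1-high) and 1.5 (WT1-intermediate), beside -0.10 and -0.13 over all probes. The 3 arrays of each in vivo group lay wholly to 1 side of the 3 WT1-negative arrays for all 16 probes, as they did for 68.4% (WT1-high) and 65.5% (WT1-intermediate) of all probes. The comparisons share their WT1-negative arrays.

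**Figure D1:**
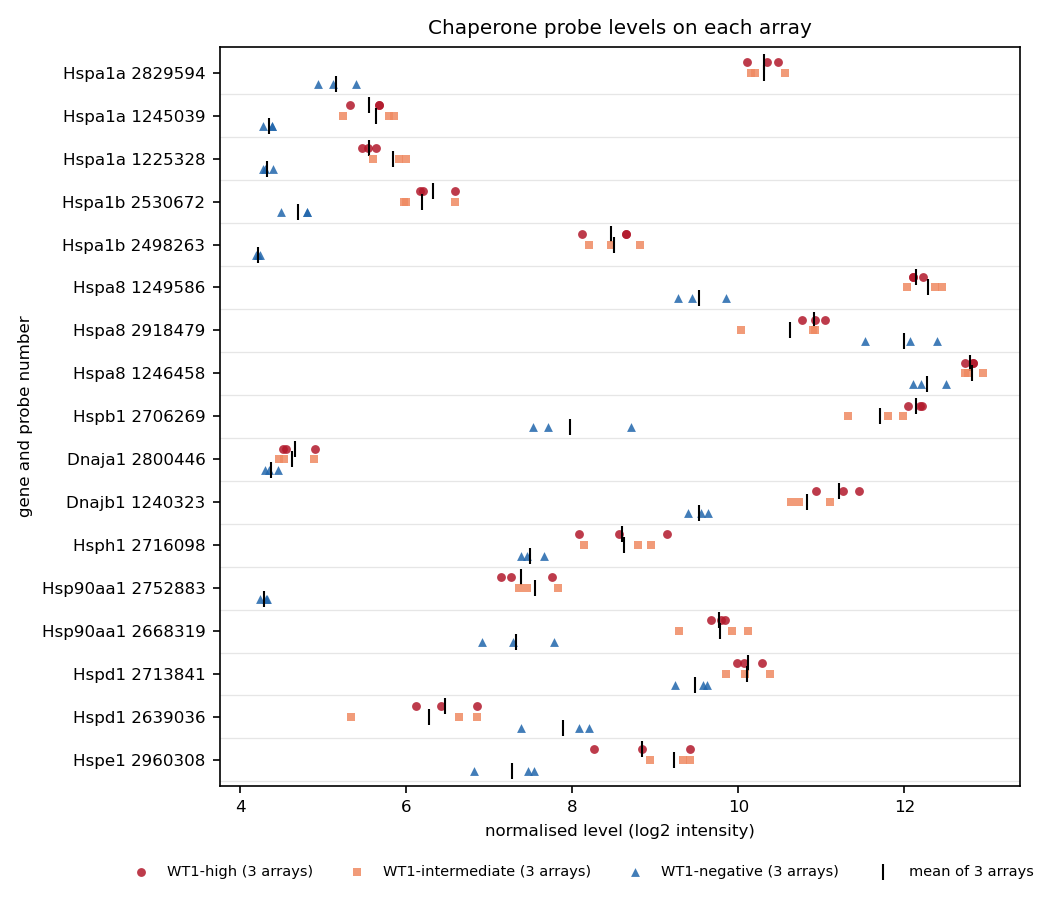
Normalised log2 intensity (x axis) of the 16 member probes that passed the filter and of the Hsph1 probe (y axis, gene and probe number), with 1 point per array for the 3 arrays of each group and a tick at each group mean. For Hspa1a probe ILMN_2829594 the in vivo arrays sit between 10.11 and 10.56 and the WT1-negative arrays between 4.94 and 5.39, whereas probes ILMN_2918479 (Hspa8) and ILMN_2639036 (Hspd1) run the other way.

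Hspa1a and Hspa1b are the stress-inducible HSP70 proteins. The brightest Hspa1a probe (ILMN_2829594, chromosome 17) read 10.35, 10.47 and 10.11 in WT1-high replicates 1, 8 and 29, 10.21, 10.56 and 10.15 in WT1-intermediate replicates 1, 8 and 30, and 4.94, 5.11 and 5.39 in WT1-negative replicates 3, 11 and 14. All 6 in vivo arrays were high and all cultured arrays were low, with a gap far wider than the spread within any group. The mean was higher than in WT1-negative cells by 5.16 ± 0.18 (SE) in WT1-high and by 5.16 ± 0.18 in WT1-intermediate cells, a 35.8-fold and a 35.7-fold difference. The cultured level lies close to background, and without background correction the log2 difference was 3.65 in either comparison. The deposited intensities, before any correction, showed the same order. They were 1440, 2136 and 1185 in WT1-high, 861, 1471 and 564 in WT1-intermediate and 107, 114 and 122 in WT1-negative cells. On the 8 arrays whose bead numbers were used, these means rest on 23 to 55 beads.

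The other 2 Hspa1a probes were dim and detected on no WT1-negative array, so only a bound can be given for the cultured cells. Probe ILMN_1245039 read 5.32, 5.67 and 5.68 in WT1-high cells and 5.85, 5.24 and 5.80 in the WT1-intermediate ones, at least 1.94-fold and at least 2.04-fold above the background limit of the WT1-negative arrays. Probe ILMN_1225328 read 5.54, 5.63 and 5.47 in WT1-high cells and 5.91, 6.00 and 5.60 in the WT1-intermediate ones, at least 1.92-fold and at least 2.35-fold above it. All 3 Hspa1a probes ran in 1 direction, with no overlap between in vivo and cultured arrays. The 2 dim probes passed the detection filter through the in vivo arrays alone, so their direction adds no support to the bright probe. Groups did not overlap for 68.4% (WT1-high) and 65.5% (WT1-intermediate) of all probes either.

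Hspa1b was also higher in vivo. ILMN_2498263 (chromosome 17) read 8.12, 8.65 and 8.65 in WT1-high cells and 8.20, 8.47 and 8.82 in WT1-intermediate cells. In WT1-negative replicates 3, 11 and 14 it read 4.19, 4.24 and 4.21 and was not detected, so it passed the filter through the in vivo arrays alone. WT1-high cells were at least 14.6-fold and WT1-intermediate cells at least 14.9-fold higher. The second probe, ILMN_2530672, read 6.16, 6.58 and 6.21 in WT1-high, 5.98, 6.00 and 6.59 in WT1-intermediate and 4.49, 4.8 and 4.8 in WT1-negative cells, where 2 of 3 arrays detected it. Its differences from WT1-negative cells were 1.62 ± 0.20 (SE) for WT1-high and 1.49 ± 0.20 (SE) for WT1-intermediate cells, and 0.64 and 0.58 without background correction.

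Hspa8, the constitutive HSP70 of the cytosol, which also strips clathrin from vesicles, had 3 bright probes on chromosome 9 that did not read alike. ILMN_1249586 read 12.11, 12.10 and 12.22 in WT1-high, 12.45, 12.03 and 12.37 in WT1-intermediate and 9.86, 9.28 and 9.45 in WT1-negative cells. It was higher in vivo by 2.62 ± 0.18 (SE, WT1-high) and 2.76 ± 0.18 (SE, WT1-intermediate). ILMN_1246458 read 12.83, 12.73 and 12.83 in WT1-high, 12.73, 12.77 and 12.95 in WT1-intermediate and 12.20, 12.50 and 12.11 in WT1-negative cells. Its differences were smaller, 0.53 ± 0.15 (SE) and 0.55 ± 0.15 (SE). ILMN_2918479 ran against both, at 10.77, 11.05 and 10.92 in WT1-high, 10.93, 10.03 and 10.91 in WT1-intermediate and 11.53, 12.40 and 12.07 in WT1-negative cells. It was lower in vivo by 1.09 ± 0.27 and 1.38 ± 0.27 on the log2 scale (SE), with no overlap between in vivo and cultured arrays. The array therefore gives no single direction for Hspa8.

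Hspb1 (HSP25), a small heat shock protein that also binds actin, was bright in both in vivo populations. Probe ILMN_2706269 (chromosome 5) read 12.04, 12.19 and 12.21 in WT1-high cells, 11.33, 11.81 and 11.99 in WT1-intermediate cells and 7.70, 8.70 and 7.53 in WT1-negative cells. The difference from cultured cells was 4.17 ± 0.28 (SE), or 18-fold, in WT1-high and 3.73 ± 0.28 (SE), or 13.3-fold, in WT1-intermediate cells. WT1-negative replicate 11 lay above the other cultured arrays, and the cultured samples varied more for this gene than the WT1-high ones (SD 0.63 and 0.09).

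The J-domain co-chaperones differed in how well they could be read. Dnajb1 (HSP40), the main partner of inducible HSP70, read 11.26, 11.45 and 10.94 in WT1-high, 10.64, 11.10 and 10.73 in WT1-intermediate and 9.55, 9.63 and 9.40 in WT1-negative cells (ILMN_1240323, chromosome 8). It was higher in vivo by 1.69 ± 0.18 (SE) in WT1-high and by 1.30 ± 0.18 (SE) in WT1-intermediate cells. Dnaja1 could hardly be measured. Its probe ILMN_2800446 (chromosome 4) read between 4.30 and 4.90 on all 9 arrays and was detected on 3 WT1-high, 1 WT1-intermediate and 0 WT1-negative arrays. Set against the background limit of the cultured arrays, its bounds were at least 1.04-fold (WT1-high) and at least 1.02-fold (WT1-intermediate).

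Hsph1 (HSP110, also called HSP105), a relative of HSP70 that acts as its nucleotide exchange factor, read 8.57, 8.08 and 9.14 in WT1-high, 8.79, 8.14 and 8.95 in WT1-intermediate and 7.38, 7.66 and 7.45 in WT1-negative cells. The differences were 1.10 ± 0.27 (SE) and 1.13 ± 0.27 (SE). The arrays numbered 8 gave the lowest in vivo value in both populations.

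Hsp90aa1, the inducible form of cytosolic HSP90, had 2 probes that ran the same way. ILMN_2668319 read 9.84, 9.79 and 9.67 in WT1-high, 9.92, 9.29 and 10.12 in WT1-intermediate and 7.78, 6.91 and 7.29 in WT1-negative cells, a difference of 2.44 ± 0.25 (SE) and 2.45 ± 0.25 (SE). ILMN_2752883 read 7.14, 7.26 and 7.76 in WT1-high cells. In WT1-intermediate cells it read 7.46, 7.36 and 7.83, and in WT1-negative cells, where it was not detected, 4.24, 4.32 and 4.31. WT1-high cells were at least 6.89-fold and WT1-intermediate cells at least 7.70-fold higher with this probe. ILMN_2752883 passed the filter through the in vivo arrays alone, so its direction adds no support to the other probe.

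Hspd1 (HSP60) and Hspe1 (HSP10), the paired mitochondrial chaperonins, are neighbours on chromosome 1. Hspe1 (ILMN_2960308) read 8.85, 8.27 and 9.42 in WT1-high, 9.42, 8.94 and 9.33 in WT1-intermediate and 7.54, 6.82 and 7.47 in WT1-negative cells, higher in vivo by 1.57 ± 0.29 (SE) and 1.95 ± 0.29 (SE). The brighter Hspd1 probe, ILMN_2713841, read 10.07, 9.99 and 10.29 in WT1-high, 10.09, 9.85 and 10.38 in WT1-intermediate and 9.62, 9.24 and 9.58 in WT1-negative cells, and its differences were 0.64 ± 0.18 (SE) and 0.63 ± 0.18 (SE). With the arrays scaled to equal medians instead of quantile normalised, its WT1-intermediate difference turned to -0.09. The dimmer probe, ILMN_2639036, ran the other way. It read 6.12, 6.42 and 6.85 in WT1-high, 6.63, 5.34 and 6.85 in WT1-intermediate and 7.38, 8.20 and 8.09 in WT1-negative cells, lower in vivo by 1.43 ± 0.37 and 1.62 ± 0.37 on the log2 scale (SE). As for Hspa8, no single direction can be given for Hspd1.

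**Figure D2:**
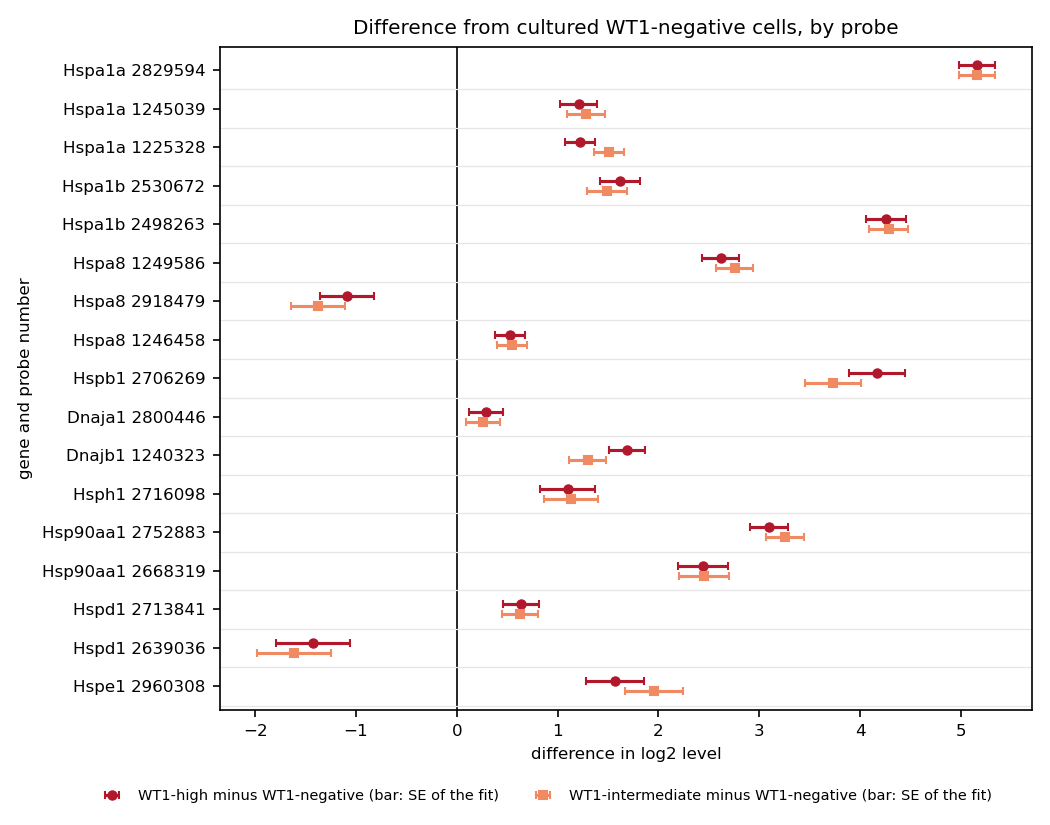
Difference in log2 level from WT1-negative cells (x axis) for each member probe (y axis), for WT1-high (circles) and WT1-intermediate cells (squares), with the SE of the fit as bars (n = 3 arrays per group). Of the points right of 0, Hspa1a probe ILMN_2829594 lies furthest out at 5.16, and those left of 0 are probe ILMN_2918479 of Hspa8 (-1.09 and -1.38) and probe ILMN_2639036 of Hspd1 (-1.43 and -1.62).

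The WT1-high and WT1-intermediate populations were isolated in the same way and differ in WT1 level, but also in markers of other cell types. By limma, 16 of 19 macrophage markers were lower in WT1-high cells. WT1 level and cell content therefore cannot be told apart in this comparison. By limma, 0 of the 16 member probes were called at an adjusted p under 0.05. An unadjusted p under 0.05 was reached by 0 of the 16 and by 17.2% of all probes. Over all probes 3.55% were called, 0.904% higher and 2.64% lower in WT1-high cells. The member differences ranged from -0.39 (Hspe1) to 0.44 (Hspb1), with 8 above and 8 below 0, a median of -0.0027 beside 0.05 over all probes. Arrays of the 2 populations overlapped for 15 probes. Hspb1 was the exception, with its lowest WT1-high array at 12.04 and its highest WT1-intermediate array at 11.99. Groups did not overlap for 20.1% of all probes.

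A missed threshold does not show that the populations were alike. The 95% intervals cover the spread between arrays in the reported fit, which has no pairing, and do not cover other scalings. For the brightest Hspa1a probe the difference was 0.0038, with a 95% interval from -0.39 to 0.39. The interval was -0.45 to 0.41 for Hspa1b (ILMN_2498263), -0.18 to 1.05 for Hspb1, -0.01 to 0.79 for Dnajb1 and -1.02 to 0.24 for Hspe1. Under median scaling the difference lay above these intervals for Hspa1a (0.71), Hspa1b (0.69), Dnajb1 (1.03) and Hspe1 (0.33). For Hspb1 (1.03) it lay inside. Scaling to equal medians moved the median of all probes in this comparison by 0.40. With that scaling 4 of the 16 member probes were called as higher in WT1-high cells, as were 2563 of all 20573 probes. Of the 16, 0 were called under every other setting, the replicate block among them. With Hsph1 included, 15 of 17 probes changed the sign of this difference under at least 1 alternative and 9 of 17 under median scaling, so no direction is given for single members here.

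**Figure D3:**
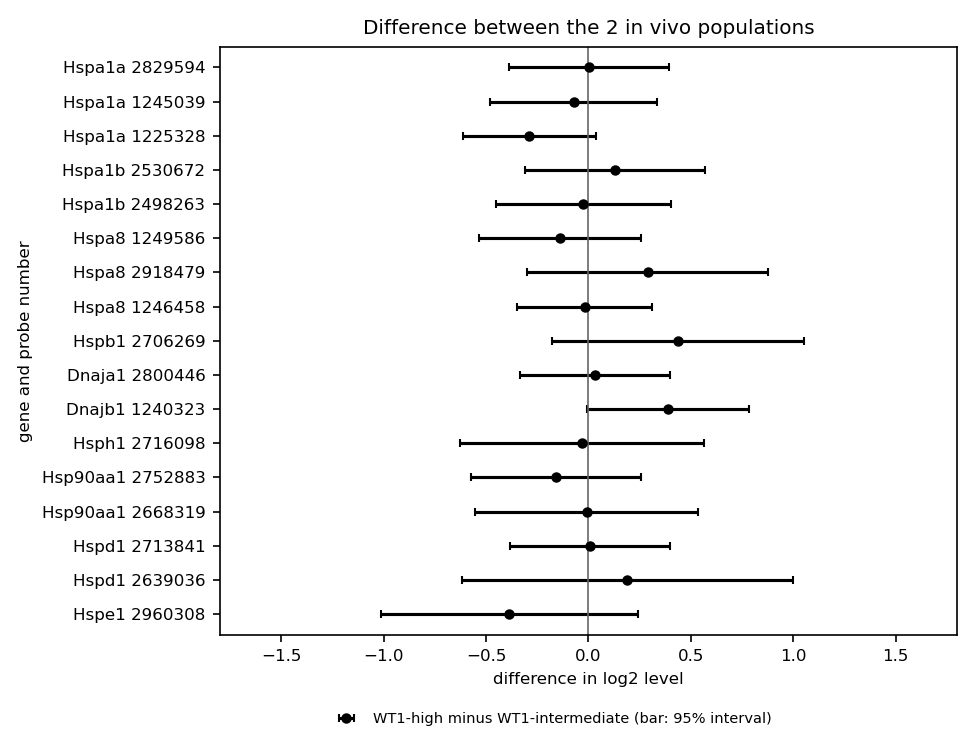
WT1-high minus WT1-intermediate difference in log2 level (x axis) for each member probe (y axis), with the 95% interval of the fit as bars (n = 3 arrays per group). All 17 intervals include 0, and the points lie between -0.39 and 0.44.

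The remaining chaperone machinery was read from 10 lists of 118 further genes, each by its brightest probe, of which 103 were tested. Against WT1-negative cells, 35 genes were higher and 26 lower in WT1-high cells (limma, adjusted p under 0.05), and 30 were higher and 30 lower in WT1-intermediate cells. Cdc37l1, Dnajc16 and Yme1l1 had probes called in opposite directions in both comparisons, as had Dnajc8 in WT1-intermediate cells, so these genes have no single direction there. Counts of higher genes include some, such as Dnajc6 and Sugt1, that passed the filter through the in vivo arrays alone. The called shares, 59.2% and 58.3%, lie near the 59.6% and 58% of all probes. The median difference was 0.15 (WT1-high) and -0.01 (WT1-intermediate), and the latter turned to 0.09 with cyclic loess. With equal medians the split in WT1-intermediate cells was 20 higher and 49 lower. Adjusted p-values in the following are limma's, by Benjamini-Hochberg over all 20573 probes, for WT1-high and then WT1-intermediate against WT1-negative cells.

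The endoplasmic reticulum counterparts, which fold secreted and membrane proteins, were called in 1 direction only in both comparisons. Of 10 tested genes, 6 were higher and 0 lower in WT1-high cells, and 7 were higher and 0 lower in WT1-intermediate cells, with medians of 1.38 and 1.12. Hspa5 (BiP), the HSP70 of this compartment, read 8.38, 8.54 and 9.54 in WT1-high, 9.17, 8.32 and 9.57 in WT1-intermediate and 5.16, 4.40 and 5.07 in WT1-negative cells, of which 2 detected it. It rose by 3.94 ± 0.36 (SE, adjusted p 4.1e-06) and 4.14 ± 0.36 (SE, adjusted p 3.4e-06). Dnajb9, a J-domain partner of BiP, rose by 2.92 ± 0.30 (SE, adjusted p 8.2e-06) and 2.66 ± 0.30 (SE, adjusted p 2e-05).

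Of the heat shock factors, Hsf1, the main activator of the response, was not called (differences 0.14 and -0.11, adjusted p 0.42 and 0.51). Hsf2 rose by 1.17 ± 0.19 (SE, adjusted p 0.00033) and 1.41 ± 0.19 (SE, adjusted p 1e-04), although its dimmer probe was not called. Hsbp1, a small protein that binds heat shock factors, fell in WT1-intermediate cells by 0.69 ± 0.17 on the log2 scale (SE, adjusted p 0.0044).

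Among 6 other HSP70 and HSP110 proteins, 4 were higher and 1 lower in WT1-high cells, and 3 were higher and 1 lower in WT1-intermediate cells. Hspa2 rose by 1.96 and 1.47 (adjusted p 1.4e-06 and 1.5e-05), and Hspa4, an HSP110 relative, by 1.6 and 1.42 (adjusted p 0.00014 and 0.00036). Hspa9, the mitochondrial HSP70, fell by 0.43 and 0.51 on the log2 scale (adjusted p 0.031 and 0.014). Its WT1-high call was lost under median scaling, cyclic loess and without WT1-high replicate 1 or 8 or WT1-negative replicate 3 or 14 (adjusted p up to 0.13), and its WT1-intermediate call without WT1-negative replicate 14 (adjusted p 0.067). The J-domain proteins ran mostly the other way, with 6 of 29 higher and 13 lower in both comparisons. Dnajb4, a stress-inducible relative of Dnajb1, rose by 3.74 and 3.60 (adjusted p 1.7e-06 and 2.8e-06), with 1 of 3 WT1-negative arrays detecting it. Dnajc6 (auxilin), which recruits Hspa8 to clathrin coats, was not detected in WT1-negative cells and was at least 11.6-fold and at least 9.33-fold higher. It passed the filter through the in vivo arrays alone, so its direction is a description and not a test. Dnajc12, detected on 1 WT1-high and 2 WT1-intermediate arrays, fell by 2.46 and 2.19 on the log2 scale (adjusted p 9.4e-07 and 2.7e-06), and Dnajc13, an endosomal protein, by 2.24 and 1.86 (adjusted p 4.1e-07 and 2.1e-06).

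Of 11 exchange factors and HSP70 modulators, 3 were higher and 2 lower in WT1-high cells, and 2 were higher and 1 lower in WT1-intermediate cells. Bag3, which links HSP70 to small heat shock proteins and autophagy, rose by 1.30 and 1.16 (adjusted p 3.4e-05 and 9.4e-05). St13 (HIP) rose by 1.24 and 1.8 (adjusted p 0.00078 and 6e-05). Bag4 fell by 0.59 and 0.87 on the log2 scale (adjusted p 0.0042 and 0.00034). Grpel1, the mitochondrial exchange factor, fell in WT1-high cells by 0.52 (adjusted p 0.045). That call was lost without any of 6 arrays, with adjusted p up to 0.18 without WT1-high replicate 8, and its second probe read 0.15 and -0.24 without a call.

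Of 18 HSP90 proteins and co-chaperones, 6 were higher and 4 lower in WT1-high cells, and 4 were higher and 6 lower in WT1-intermediate cells. Ptges3 (p23), which steadies the closed form of HSP90, rose by 2.17 and 2.12 (adjusted p 1.8e-06 and 2.6e-06). Sugt1 was not detected in WT1-negative cells and was at least 2.58-fold and at least 2.11-fold higher. It too passed the filter through the in vivo arrays alone, so its direction is no test. Cdc37, which brings kinases to HSP90, fell by 0.96 and 1.06 on the log2 scale (adjusted p 0.0047 and 0.0027). Chordc1 fell by 0.88 and 1.05 (adjusted p 0.0012 and 0.00037).

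The other small heat shock proteins split. Hspb8, the partner of Bag3, read 12.49, 12.77 and 12.85 in WT1-high, 11.48, 11.79 and 12.40 in WT1-intermediate and 9.95, 9.78 and 10.04 in WT1-negative cells, a rise of 2.78 and 1.97 (adjusted p 1.3e-06 and 2.1e-05). Hspb6 (HSP20), abundant in muscle, fell by 2.08 and 2.62 on the log2 scale (adjusted p 2.3e-06 and 5.3e-07). Cryab rose in WT1-high cells by 0.73 (adjusted p 0.0097). Of the 5 tested genes, 2 were higher and 1 lower in WT1-high cells, and 1 was higher and 1 lower in WT1-intermediate cells.

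The multi-subunit chaperones did not move as units. Of 8 subunits of CCT, the ring that folds actin and tubulin, 4 were higher and 1 lower in WT1-high cells, and 3 were higher and 2 lower in WT1-intermediate cells. Cct5, detected on 1 of 3 WT1-negative arrays, rose by 2.48 and 2.38 (adjusted p 4.8e-06 and 8.1e-06), and Cct7 by 0.95 and 0.86 (adjusted p 0.0032 and 0.0059), while Cct6a fell by 0.66 and 0.79 on the log2 scale (adjusted p 0.0017 and 0.00052). Cct4 fell in WT1-intermediate cells by 0.40 (adjusted p 0.046), a call lost under 8 alternatives. Of 5 prefoldin subunits, which hand substrates to CCT, Vbp1 rose by 2.44 and 2.47 (adjusted p 9.7e-06 and 1.1e-05), while Pfdn2 fell by 0.86 and 0.67 (adjusted p 0.01 and 0.035) and Pfdn4 by 0.76 and 0.63 (adjusted p 0.0043 and 0.013). The WT1-intermediate call of Pfdn2 was lost without filter and without any of 5 arrays (adjusted p up to 0.13, without WT1-intermediate replicate 8). A second Pfdn4 probe read 0.59 and 0.59 without a call. Among 7 mitochondrial proteases and unfoldases, Yme1l1 gave 2.05 and 1.90 with its brighter probe and -0.84 and -1.29 with the other. Clpx rose by 0.83 and 0.72 (adjusted p 0.0013 and 0.0034) with its brighter probe, while the other read 0.02 and -0.31 without a call. Under median scaling its WT1-intermediate difference was 0.016 and the call was lost. Htra2 fell by 1.11 and 0.97 on the log2 scale with its brightest probe (adjusted p 7.5e-05 and 0.00022) and Afg3l2 by 1.03 and 0.92 (adjusted p 0.0035 and 0.007). A dimmer Htra2 probe read -0.79 and -0.59 (adjusted p 0.00068 and 0.0047), and another read -0.34 and -0.24 without a call.

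**Figure D4:**
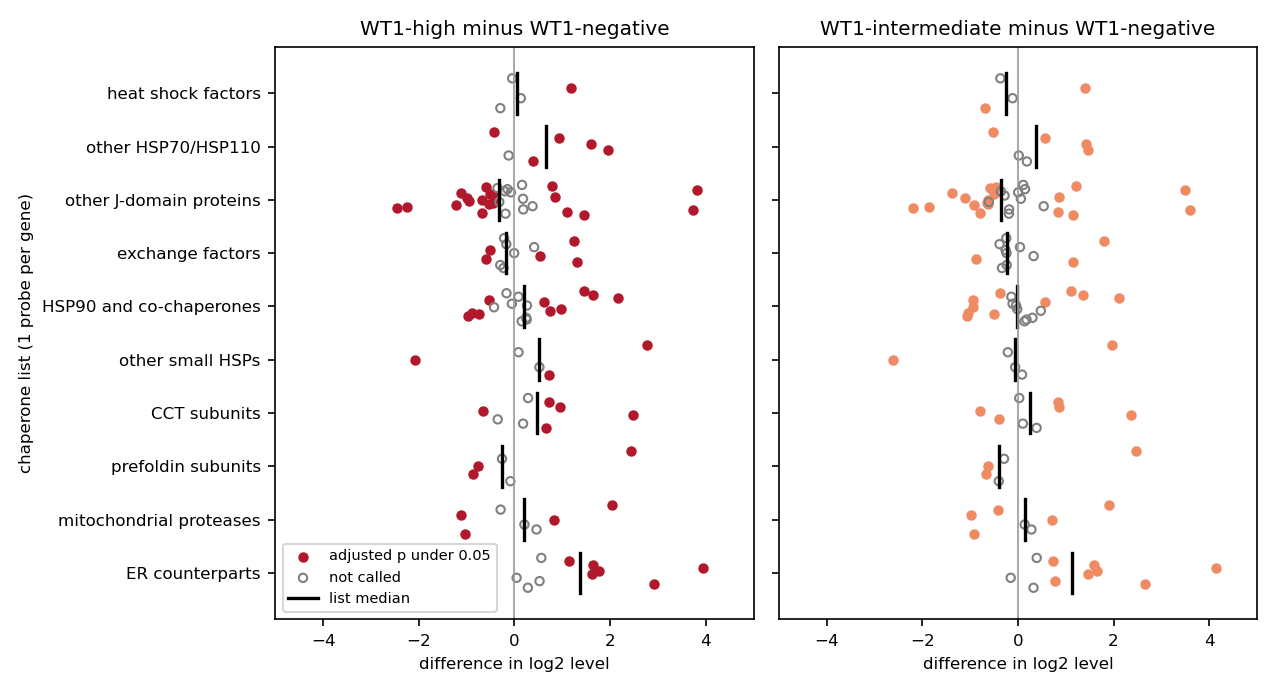
Difference in log2 level from WT1-negative cells (x axis) of 103 other chaperone genes in 10 lists (y axis), WT1-high on the left and WT1-intermediate on the right, with filled points for an adjusted p under 0.05 (limma), open points otherwise and a bar at each list's median. The endoplasmic reticulum counterparts have the highest medians, 1.38 and 1.12, and no called gene below 0.

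Between WT1-high and WT1-intermediate cells, 0 of the 103 genes were called by limma, and 14 had an unadjusted p under 0.05, 11 of them higher in WT1-high cells. Over all probes 17.2% had an unadjusted p under 0.05. All 5 tested small heat shock proteins lay above 0, by 0.30 to 0.81. With a random replicate block that takes replicates 29 and 30 as 1 animal, 6 genes were called as higher in WT1-high cells. They were Hspb8 (0.81, adjusted p 0.016), Cryab (0.65, adjusted p 0.033), Hspb6 (0.54, adjusted p 0.04), Hspa2 (0.49, adjusted p 0.049), Fkbp8 (0.52, adjusted p 0.048) and Fkbp5, an HSP90 co-chaperone (0.99, adjusted p 0.02; limma, Benjamini-Hochberg). These genes are named because of these values. The share of all probes called with this block is not given here, so nothing is read from the count of these genes. The brighter Hspb8 probe was not called without the block (adjusted p 0.071), while its dimmer probe was (1.07 ± 0.23, SE, adjusted p 0.029).

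Promoters were searched for heat shock elements because the members are classed together by this response. RefSeq promoter windows (GRCm38.p6, 250 bases before to 50 bases after each start) were found for 8 of the 10 genes and not for Hspa8 and Hsp90aa1. An element of 3 alternating units, GAA and TTC in turn, with any 2 bases between neighbouring units and either unit first, searched on both strands, occurred in the windows of Hspd1, Hspe1 and Hsph1, in 2 of 92 other chaperone genes (Dnajb6 and Chordc1) and in 0.662% of all 27025 genes (0.603% of 32851 windows). The shorter pair GAANNTTC or TTCNNGAA, which lies inside the longer one, occurred in 7 of the 8 members, all but Dnajb1, in 19.6% of the other chaperone genes and in 17% of all genes (15.1% of windows). The stretches below show the matches in capitals, read 5′ to 3′ on the strand of the gene.

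Hspd1 (chr1:55088053-55088082, minus strand): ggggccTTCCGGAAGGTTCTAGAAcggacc

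Hspe1 (chr1:55088053-55088082, plus strand): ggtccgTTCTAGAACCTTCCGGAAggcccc

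Hsph1 (chr5:149636287-149636316, minus strand): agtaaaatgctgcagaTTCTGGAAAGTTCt

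Hspa1a (chr17:34972242-34972271, minus strand): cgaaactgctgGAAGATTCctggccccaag

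Hspa1b (chr17:34959324-34959353, minus strand): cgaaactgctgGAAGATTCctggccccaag

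Hspb1 (chr5:135887811-135887840, plus strand): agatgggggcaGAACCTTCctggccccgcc

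Dnaja1 (chr4:40722333-40722362, plus strand): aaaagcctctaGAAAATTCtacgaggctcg

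Hspd1 and Hspe1 share 1 stretch, read from opposite strands, which begins 144 bases before a start of Hspd1 and 89 bases before that of Hspe1. It holds 2 overlapping matches to the longer element over 18 bases. The Hspa1a and Hspa1b stretches, 104 bases before each start, are identical in all 30 printed bases. The Hsph1 match shown lies 36 bases after a start, and a further pair of this gene begins 33 bases before a start. Hspb1 has a second pair 117 bases before its start. A match is a description of letters and not evidence of binding. Counts of the other chaperone genes with and without a pair are given as a description, and a link of the pair to expression was not tested. Of 16 tested with a pair, 6 were higher and 5 lower in WT1-high cells relative to culture, and of 64 without one 24 were higher and 14 lower. In WT1-intermediate cells 4 of the 16 were higher and 4 lower, and 22 of the 64 were higher and 18 lower. Chordc1, with the longer element, fell, and Dnajb6 was not called (0.18, adjusted p 0.42, in WT1-high cells; limma, Benjamini-Hochberg). The CCAAT box (CCAAT or ATTGG, both strands), another element of heat shock promoters, was found in 6 of the 8 members, 37% of the other chaperone genes and 41.1% of all genes.

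The probes most like a member over the 9 arrays were named by the root mean square distance of levels, each centred on its own mean. For Hspa1a (ILMN_2829594) they were C4a (0.16), C4b (0.19), LOC100045680 (0.22), Nme7 (0.24) and Ces3 (0.25), beside a median of 2.5 over all probes. C4a and C4b are near-identical complement genes, so their probes may read each other's transcript. For Hspd1 (ILMN_2713841) they were Sgcb (0.09), Tmed9 (0.10), Tmem11 (0.10), Gcat (0.10) and LOC668164 (0.10), beside a median of 0.54. The likeness is a description over 9 arrays that fall into an in vivo and a cultured set.

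Other gene groups changed along with the members between in vivo and cultured arrays. Immediate early genes, which like the inducible heat shock genes respond within minutes, had a summed level (linear scale) of 56564 to 76042 in WT1-high, 65612 to 74365 in WT1-intermediate and 23324 to 30600 in WT1-negative cells. Of 17 tested, 14 were higher and 1 lower in WT1-high than in WT1-negative cells, 14 were higher and 0 lower in WT1-intermediate cells, and 0 were called between the WT1-positive populations (limma). Summed levels of the 10 members, by the brightest probe of each, were 18206 to 18627, 15479 to 18719 and 6462 to 7960 in the same order. These sums leave out the Hspa8 and Hspd1 probes that ran the other way.

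Markers of other cell types changed too. Of 12 mesothelial markers, 12 were higher in the WT1-high and 11 in the WT1-intermediate population relative to culture, with sums of 35281 to 39402, 20438 to 28008 and 271 to 385, and Msln was detected on 1 of 3 WT1-negative arrays. Of 9 T and NK cell markers tested, 8 were higher in either in vivo group, with sums of 1272 to 2535, 1411 to 2729 and 58.2 to 64.7, and Cd3e was at background in culture. Of 9 skeletal muscle markers, 9 were lower in either in vivo group, with sums of 48.7 to 66.1, 88.8 to 171 and 6941 to 10452, and Myl1 was detected on the 3 WT1-negative arrays and on no in vivo array. Of 16 stellate cell markers, 9 were higher and 3 lower in the WT1-high population and 8 higher and 3 lower in WT1-intermediate cells than in culture. They summed to 29022 to 35913, 26649 to 38508 and 18581 to 22829, with Des and Col1a1 detected on all 9 arrays. Hepatocyte markers summed to 6551 to 10148, 3175 to 5257 and 3478 to 4813, with 8 of 9 and 5 of 9 higher in vivo and Alb detected on no array. The part of these groups in the members' differences was not tested.

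Macrophage markers differed between the in vivo populations. Their summed level was 8647 to 13591 in WT1-high, 25136 to 39727 in WT1-intermediate and 69389 to 74900 in WT1-negative cells. Of 19, 16 were lower in the WT1-high than in the WT1-intermediate population (limma), Csf1r detected on all 9 arrays. Relative to culture, 2 were higher and 13 lower in WT1-high cells, and 5 were higher and 7 lower in WT1-intermediate cells. Between the in vivo populations the member differences ran from -0.39 to 0.44, and the part of the macrophage markers in them was not tested. Endothelial markers summed to 1340 to 1808, 2566 to 2853 and 1838 to 2549, with 4 of 14 lower in the WT1-high population. Neutrophil markers summed to 1026 to 2252, 1724 to 2781 and 255 to 490, and B cell markers to 57.9 to 76.8, 82.8 to 110 and 39.4 to 50.3, with 0 called between the in vivo populations for either list. The probe for Pecam1 was detected on all arrays. Cd79a was not analysed here.

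**Figure D5:**
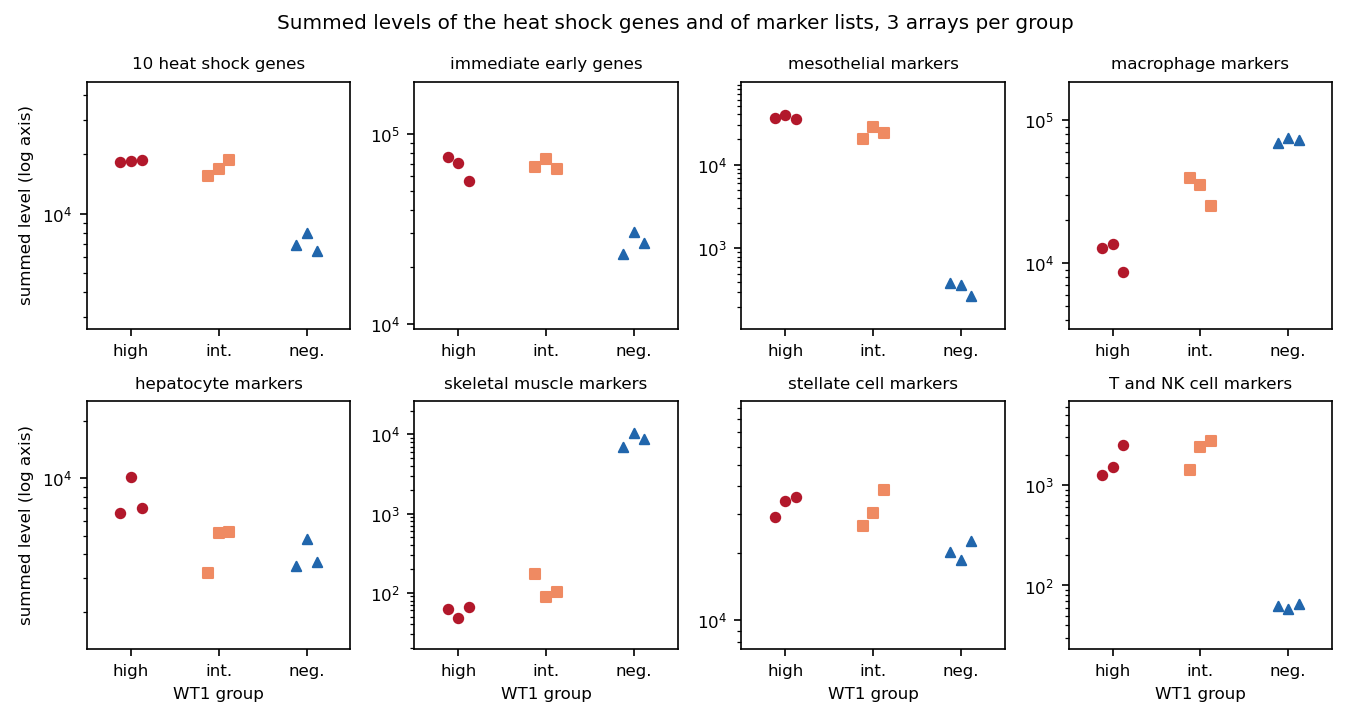
Summed level on the linear scale (y axis, log axis, different range in each panel) of the 10 heat shock genes and 7 marker lists, with 1 point per array for WT1-high, WT1-intermediate (int.) and WT1-negative (neg.) cells, 3 arrays each. The heat shock genes reach at most 7960 in WT1-negative cells and at least 15479 in the other groups, the immediate early genes at most 30600 and at least 56564, whereas the macrophage sum, though not every marker in it, is highest in WT1-negative cells. Sums take the brightest probe of each gene, which leaves out the Hspa8 and Hspd1 probes that ran the other way.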

How the data were processed

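RNA from 9 sorted samples was read on Illumina MouseWG-6 v2.0 arrays, 1 array per sample. The authors deposited unnormalised BeadStudio profiles, in which each probe has an intensity (mean over its beads, linear scale), a bead standard error, a bead number and a detection p-value, the share of negative controls brighter than the probe. Deposited detection p-values were used as a filter only. For WT1-intermediate replicate 30 the value was recomputed as that share of brighter negative controls, which on the other 8 arrays left 0 values on the other side of the threshold. In all, 51 per-sample columns were not used. A table joining the same intensities was checked and equalled them (largest difference 0), and identified the column for WT1-intermediate replicate 30, which is numbered 29 in the other table.

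As in the authors' outline, intensities were corrected with 936 negative controls, quantile normalised and log2 transformed (neqc, offset 16; limma 3.58.1, R 4.3.3). A probe was kept (20573 of 45281) where 3 or more of the 9 arrays gave it a detection p below 0.05, a filter the study does not state. A linear model over all 9 arrays gave the 3 comparisons by limma's moderated two-sided test (6 residual and 5.19 prior degrees of freedom), adjusted by Benjamini-Hochberg over the kept probes. Steps were tested on simulated data. Errors given as SE are from this fit, and the number of arrays limits precision. Between 17253 and 19774 probes were detected per array.

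Members and lists were chosen with earlier results of these data known. Of 118 other chaperone genes, 109 were matched by symbol, 4 by Entrez gene ID and 1 by synonym, and 4 were not matched. Named are all member probes, in each list and comparison up to 2 of the largest called rises and falls by brightest probe, and the 5 probes most like Hspa1a and Hspd1. Other genes are said to be named for their values. Where every array of the dimmer group missed a probe, the fold is bounded by the lowest detected signal there and written "at least". Promoter windows were RefSeq's (GRCm38.p6), and chromosomes of probes are those of the deposited tables.

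The 6 in vivo arrays came from 3 animals per the study, and their numbers recur. Deviations from group means correlated across probes at 0.35 (numbers 1), 0.34 (numbers 8) and 0.47 (29 with 30), and at -0.39 to 0.03 in the other combinations. They were taken as pairs, and the replicate block, which the study's model lacks, was an alternative. The others were no background correction, median scaling, cyclic loess, an offset of 50, no filter, detection on all 9 arrays, only the compared groups, array weights, any probe of a gene, and leaving out each array.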

Additional observations from a re-analysis of the deposited data

How the results depend on the processing

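With arrays scaled to equal medians, the median of all probes moved by 0.40 between WT1-high and WT1-intermediate cells and by -0.30 between WT1-intermediate and WT1-negative cells, and 4 member probes and 29 other chaperone genes were called higher in the WT1-high population, where the reported counts are 0 and 0. Between WT1-high and WT1-intermediate cells 2563 of all 20573 probes were then called higher, beside 186 as reported. These were 95.5% of the calls instead of 25.5%. Between WT1-intermediate and WT1-negative cells 23.1% of the calls were higher instead of 42.1%. Cyclic loess moved the all-probe median by 0.10 for WT1-high and 0.13 for WT1-intermediate against WT1-negative cells. Between WT1-high and WT1-intermediate cells, other chaperone genes numbered 3 with a fixed replicate block, 5 and 6 with random replicate blocks (labels' numbers, and 29 with 30), 1 by any probe of a gene, and 0 to 2 with each array left out, the 2 being Hspb8 and Cryab without WT1-intermediate replicate 30. Member probes numbered 0 with each array left out. Shares of all probes called with the blocks and with arrays left out are not given here, so nothing is read from these counts. Against WT1-negative cells, member calls ran from 14 to 15 and other chaperone calls from 53 to 61 (WT1-high) and 51 to 61 (WT1-intermediate) with each array left out, and no alternative, replicate blocks included, moved them by over 1.5 times. Over all alternatives member calls ran from 10 to 15, the 10 being all member probes tested when detection on all 9 arrays was required. Of the recomputed member values, 900 moved by less than the spread between replicates, 67 by more, and 1 past the threshold reversed, Hspd1 ILMN_2713841 in WT1-intermediate against WT1-negative cells under median scaling (-0.091). Between WT1-high and WT1-intermediate cells, where 0 are past the threshold, 15 of 17 probes changed sign under some alternative, 9 of them under median scaling. Of the values of named other genes, 31 lost their call and 0 reversed, the losses being those of Hspa9, Bag4, Grpel1, Cct4, Pfdn2 and Clpx. Without background correction, Hspa1a ILMN_2829594 differed from WT1-negative cells by 3.65 in either comparison. The cause of these changes was not tested. Dim probes limit the folds of Hspa1b, Hsp90aa1 ILMN_2752883 and Dnaja1. Groups of 3 arrays were too small for the outlier test.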
